A study of Mus musculus with 8 samples.

Results

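The Rnf11 and Ttc39a region is a stretch of 1000 kb on mouse chromosome 4 (mm10, 109000000 to 109999999) that holds the genes of the RING finger protein Rnf11 and the tetratricopeptide repeat protein Ttc39a. Its members are the 200 bins of 5 kb with a position from 109000000 to 109995000, out of 31301 positions in the deposited table, and 200 of 200 had a score in every profile. The region was picked from the timing scores themselves, because both deletion profiles scored higher than control there. Its deletion minus control differences are therefore given as a description, with no test.

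The profiles come from Repli-seq on embryonic stem cells of the mouse, given BrdU for 2 h and sorted into an early and a late S-phase fraction of 40000 cells each. The control group is the JM8N4 line, and the other group is labelled as a Klf4 enhancer deletion. The labels do not state the alleles deleted, the number of clones or whether the replicates are separate cultures, so the spread between profiles may be technical. The 8 libraries give 4 profiles, control 1, control 2, deletion 1 and deletion 2, each from an early and a late library. Scores have no unit, and without read counts in the table their depth is unknown. Higher scores were read as earlier replication, since 81.1% of the 1301 measured protein-coding genes but 45.7% of bins had a mean score above 0.

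Mammalian chromosomes replicate in domains that each have a characteristic time in S phase, and early domains are mostly rich in genes and open chromatin. Between an early and a late domain the timing falls off over a transition along which few origins fire early. Embryonic stem cells redraw part of these domains when they differentiate, and enhancer-like elements are among the sequences known to affect the timing of a domain. Klf4 is not among the protein-coding genes of the region, and an action of the deleted enhancer on the region was not tested.

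The region held 10 protein-coding genes, at 10 per Mb against 8.49 per Mb over the measured chromosome. They also covered 74.5% of its length. A further 16 genes of other kinds overlap it, of which 10 are long noncoding RNAs, 4 pseudogenes, 1 a microRNA and 1 a small nucleolar RNA. The 10 protein-coding genes lie in the order Nrd1, Osbpl9, Calr4, Eps15, Ttc39a, Rnf11, 4930522H14Rik, Cdkn2c, Faf1 and Dmrta2.

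The promoters of 3 of these genes are shown as picked examples of start sites along the region. Each is the 250 bases before a start from the RefSeq table of GRCm38.p6, the assembly of mm10, printed 5′ to 3′ with every CG dinucleotide in capitals. The Nrd1 promoter, chr4:109000405-109000654 on the plus strand, stands at the lower edge of the region. The Ttc39a promoter, chr4:109415397-109415646 on the plus strand, belongs to a start 21.5 kb inside the annotated gene, near the centre of the difference described below. The Cdkn2c promoter, chr4:109666757-109667006 on the minus strand, stands where the difference was small. It is the outer of 2 listed for that gene, and the other belongs to a start 1.38 kb inside it. Nrd1 and Cdkn2c were picked for display after their values were seen.
Nrd1: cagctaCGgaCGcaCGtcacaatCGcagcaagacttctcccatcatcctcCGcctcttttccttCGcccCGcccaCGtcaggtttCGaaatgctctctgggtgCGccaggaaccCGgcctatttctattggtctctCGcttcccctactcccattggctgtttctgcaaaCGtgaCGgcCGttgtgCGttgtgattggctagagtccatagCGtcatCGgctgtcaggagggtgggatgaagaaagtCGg
Ttc39a: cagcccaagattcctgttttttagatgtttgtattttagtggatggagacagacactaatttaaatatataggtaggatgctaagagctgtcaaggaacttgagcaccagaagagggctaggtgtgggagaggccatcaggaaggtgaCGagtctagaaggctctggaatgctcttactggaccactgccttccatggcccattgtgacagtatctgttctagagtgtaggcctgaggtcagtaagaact
Cdkn2c: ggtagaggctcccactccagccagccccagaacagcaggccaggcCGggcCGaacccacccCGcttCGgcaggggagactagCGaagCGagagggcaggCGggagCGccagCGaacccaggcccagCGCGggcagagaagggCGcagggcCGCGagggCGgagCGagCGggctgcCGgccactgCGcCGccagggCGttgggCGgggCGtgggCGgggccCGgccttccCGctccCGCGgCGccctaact
The CG dinucleotide, which reads the same on both strands, occurred 19 times in the Nrd1 promoter, 1 time in that of Ttc39a and 29 times in that of Cdkn2c. The inner Cdkn2c promoter held 6. Among the 2053 promoters listed for the chromosome 94.5% held at least 1, and the median was 6 per 250 bases. At least 19 were held by 21.8% of them and at least 29 by 7.94%. Entries matched 9 of the 10 genes, all but Rnf11, with 15 promoters and a median of 6 as well. The bin that holds the Nrd1 start scored 2.50 and 3.004 in the control profiles against 2.71 and 3.003 in the deletion profiles. At the Ttc39a start the scores were 2.16 and 2.09 in the control profiles against 2.87 and 2.97 in the deletion profiles. At the Cdkn2c start they were 1.78 and 1.62 in the control profiles against 1.79 and 2.01 in the deletion profiles. Of these 3 bins the genotypes were farthest apart at Ttc39a and overlapped at Nrd1, which describes chosen sites alone. Whether the number of CG goes with the difference was not tested.

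Across the region every bin was early, with a score above 0 in all 4 profiles and a lowest value of 1.05. The mean score was 1.94 in control 1, 1.94 in control 2, 2.23 in deletion 1 and 2.55 in deletion 2. Both deletion means were therefore above both control means. The near match of the control means averages opposite signs along the region. Control 2 minus control 1 was 0.27 in the first 100 kb, -0.41 in the third and 0.33 in the ninth, and control 2 was the higher in 94 of the 200 bins. The control mean of 1.94 ± 0.004 (SD, n = 2) stood at percentile 69.1 of all measured bins, and the deletion mean was 2.39 ± 0.22 (SD, n = 2). Deletion minus control was 0.45, or 0.30 relative to the median difference of the chromosome, 0.16. This regional difference was 0.29 within number 1 and 0.61 within number 2, so both numbers had the same sign. Without deletion 2 the regional difference was 0.30, and without deletion 1 it was 0.61. Both of these values leave the replicate numbers uneven between genotypes.

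**Figure D1:**
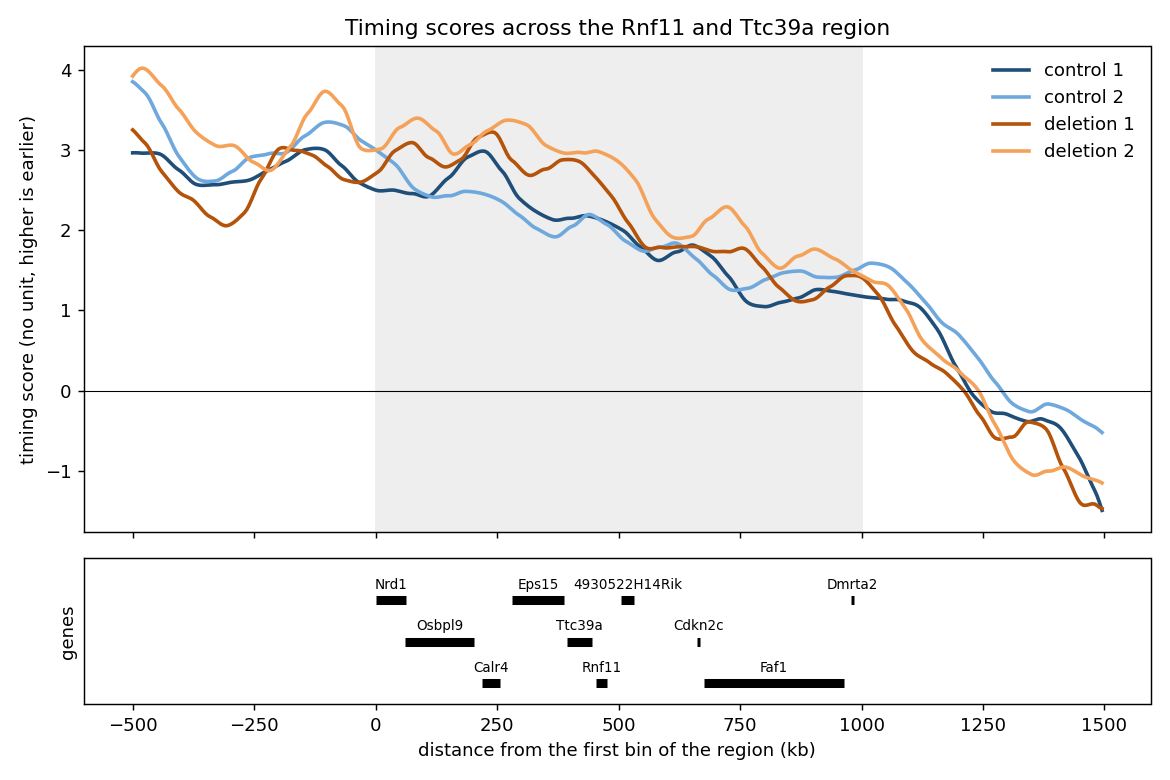
Timing scores of the 4 profiles (vertical axis, without unit, earlier upwards) against distance from the first bin of the region in kb, with the region shaded and its protein-coding genes as bars below. All 4 profiles decline across the shaded 1000 kb, and deletion 2 is the highest of them over most of it.

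The region is the shoulder of an early domain. From its first to its last 100 kb the score declined by 1.25 in control 1, 1.30 in control 2, 1.63 in deletion 1 and 1.60 in deletion 2. The decline was larger in each deletion profile than in either control, and the mean difference was 0.48 in the first 100 kb and 0.14 in the last. Control 1 kept a bump of 2.99 at 109220000 that control 2, at 2.46 there, did not show. Deletion 1 peaked nearby, with 3.23 at 109240000. Deletion 2 had its highest score, 3.40, at 109085000 and another peak of 3.37 at 109275000. The lowest score was 1.05 at 109800000 in control 1, 1.25 at 109740000 in control 2, 1.11 at 109875000 in deletion 1 and 1.45 at 109995000 in deletion 2. The low points of both controls and of deletion 1 thus lay inside Faf1, with that of deletion 1 farther up than those of the controls. The low point of deletion 2 lay beyond Faf1, in the last bin of the region.

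The difference was not spread evenly. It formed 3 humps, with peaks of 0.76 at 109085000, 0.90 at 109375000 and 0.72 at 109755000. The dips between them were 0.28 at 109175000 and 0.06 at 109620000, and a minor rise of 0.18 followed at 109955000. The first peak lies inside Osbpl9, the second near the upper end of Eps15 and the third inside Faf1. At 109375000, the highest bin, control scored 2.13 and 1.92 and deletion 2.85 and 2.99, so the groups were well apart. At 109755000 control scored 1.17 and 1.26 and deletion 1.78 and 2.09, apart as well. At 109620000, the lowest bin, control scored 1.73 and 1.84 and deletion 1.79 and 1.90, and the groups overlapped. These bins were picked by the size of their difference, so nothing is read from the separation or overlap at them.

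In steps of 250 kb the mean difference was 0.47, 0.75, 0.35 and 0.24 from the lower to the upper end. The number 1 profiles differed by 0.33, 0.51, 0.13 and 0.20 in these steps and the number 2 profiles by 0.61, 0.998, 0.57 and 0.27. The second of these steps, which holds most of Eps15 and all of Ttc39a and Rnf11, was thus the highest within both numbers. That step scored 2.26 and 2.10 in the control profiles against 2.77 and 3.10 in the deletion profiles.

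**Figure D2:**
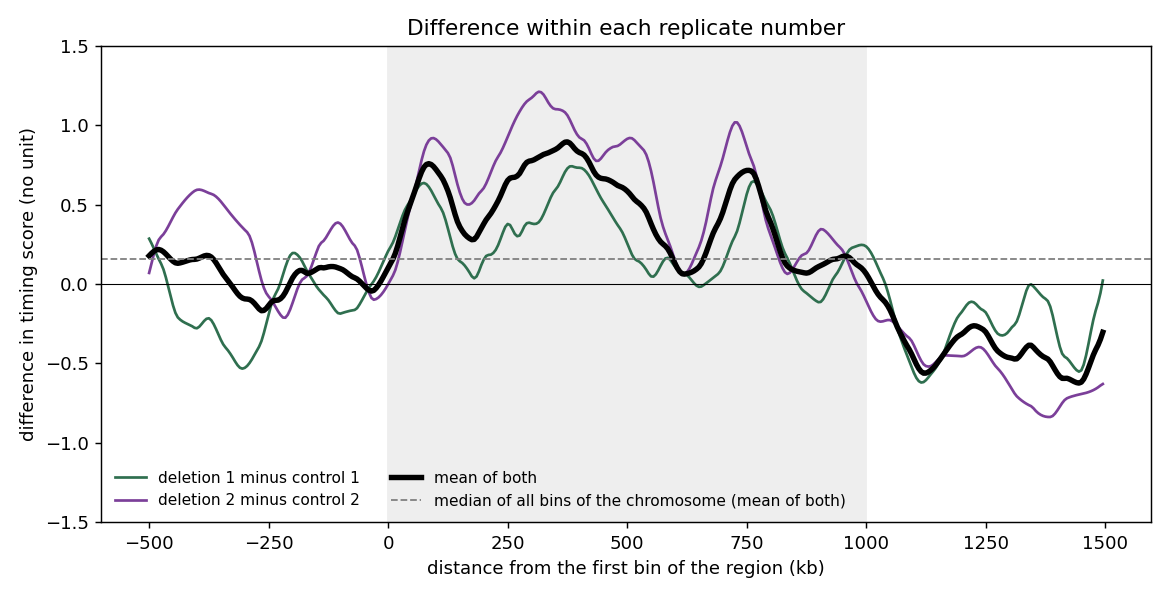
Difference in timing score (vertical axis, no unit) between deletion 1 and control 1, between deletion 2 and control 2, and their mean, against distance from the first bin of the region in kb, with the region shaded and the chromosome's median difference of 0.16 as a dashed line. The mean has peaks at 85, 375 and 755 kb and is below 0 over most of the 500 kb above the region.

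Both replicate numbers had humps near these places, at different heights. The number 2 difference had a further rise, from 0.78 at 109435000 to 0.92 at 109505000. Between these bins the number 1 difference fell from 0.60 to 0.22. The number 1 difference was highest at 109385000, with 0.74, and the number 2 difference at 109315000, with 1.21. The number 1 difference was above 0 in 182 bins and the number 2 difference in 196. Both were above 0 in 178 of the 200 bins, or 89%, against 47.3% of all measured bins of the chromosome. The region was picked for higher scores in both deletion profiles, so nothing is read from that share. The number 2 difference was the larger in 165 bins, or 82.5%, and in 63.0% of all measured bins. Across the 200 bins the 2 differences had a Pearson correlation of 0.56, and across the 30659 measured bins of the chromosome it was 0.31. These bins are neighbours that change in small steps, and not replicates, so the correlations describe these profiles alone.

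Both deletion profiles exceeded both controls in 141 of the 200 bins, or 70.5%, where 16.0% of all measured bins did so. The region was picked on this comparison, so nothing is read from that count. No bin of the region had both deletion profiles under both controls, and 5.86% of all measured bins did. The median difference of the bins was 0.47, beside 0.16 over the chromosome. The 141 bins fell into 3 unbroken runs. The first ran from 109030000 to 109574999, 545 kb, and held Osbpl9, Calr4, Eps15, Ttc39a, Rnf11 and 4930522H14Rik whole. Its mean scores were 2.37 and 2.23 in the control profiles against 2.75 and 3.07 in the deletion profiles. Of the 226 such runs on the chromosome, 3 were at least as long, this one included, and the longest spanned 595 kb. The second covered 2 bins from 109635000, with a mean difference of 0.08. The third ran from 109665000 to 109814999, 150 kb, over the lower part of Faf1, at 1.35 and 1.36 in the control profiles against 1.70 and 2.05 in the deletion profiles.

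The borders of the region do not mark a jump. The bin at 109000000, just inside, scored 2.50 and 3.004 in the control profiles against 2.71 and 3.003 in the deletion profiles. The bin at 108995000, just outside, scored 2.51 and 3.02 in the control profiles against 2.69 and 2.998 in the deletion profiles. At the other end the bin at 109995000 scored 1.18 and 1.53 in the control profiles against 1.43 and 1.45 in the deletion profiles. The bin at 110000000 beyond it scored 1.18 and 1.54 in the control profiles against 1.41 and 1.44 in the deletion profiles. At both borders the groups overlapped, and the number 2 difference was slightly negative in all 4 of these bins.

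Eps15, Ttc39a and Rnf11, neighbours in the middle of the region, had the highest gene differences. Eps15 encodes an adaptor of clathrin-mediated endocytosis. Over its 107.6 kb (109280175 to 109387817) it scored 2.26 and 2.05 in the control profiles against 2.78 and 3.18 in the deletion profiles, so the groups did not overlap. Its means were 2.15 ± 0.15 and 2.98 ± 0.28 (SD, n = 2 each), a difference of 0.82, with 0.52 within number 1 and 1.13 within number 2.

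Ttc39a (109394147 to 109444749) encodes a protein with tetratricopeptide repeats, a motif that binds other proteins. It scored 2.16 and 2.10 in the control profiles against 2.84 and 2.97 in the deletion profiles, with each genotype's profiles close together. Its means were 2.13 ± 0.05 and 2.91 ± 0.09 (SD, n = 2 each), a difference of 0.78. The number 1 profiles differed by 0.68 and the number 2 profiles by 0.87, the most even pair of values among the 5 genes with the highest differences.

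Rnf11 (109452857 to 109476505) encodes a small RING finger protein that works with ubiquitin ligases. It scored 2.13 in control 1 and 2.12 in control 2, against 2.59 in deletion 1 and 2.97 in deletion 2. The controls were nearly equal, while the deletion profiles stood apart from each other as well as from control. The means were 2.13 ± 0.01 and 2.78 ± 0.27 (SD, n = 2 each), a difference of 0.65, with 0.46 within number 1 and 0.85 within number 2.

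4930522H14Rik (109505332 to 109531297) lies on the slope above Rnf11. It scored 1.95 and 1.85 in the control profiles against 2.12 and 2.75 in the deletion profiles. Deletion 2 stood far above the other 3 profiles there. The difference was 0.53 as a mean but 0.16 within number 1 and 0.90 within number 2, and it was 0.21 without deletion 2.

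Nrd1, Osbpl9 and Calr4, at the lower end, had the highest scores. Nrd1 (109000655 to 109061777) encodes nardilysin, a metallopeptidase. It scored 2.49 and 2.86 in the control profiles against 2.90 and 3.15 in the deletion profiles, and its upper control was only just below its lower deletion profile. Its difference of 0.35 was 0.41 within number 1 and 0.29 within number 2, and Nrd1 and Dmrta2 were the genes in which number 1 gave the larger value. It was 0.17 without control 1, 0.53 without control 2, 0.23 without deletion 2 and 0.20 after quantile normalization.

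Osbpl9 (109061145 to 109202272) encodes an oxysterol-binding protein family member that carries lipids between membranes. It scored 2.61 and 2.47 in the control profiles against 2.93 and 3.18 in the deletion profiles, without overlap, a difference of 0.52. All 29 of its bins had both deletion profiles above both controls, where 16.0% of all measured bins did so. The region was picked on this comparison, and the differences of the 29 bins varied from 0.28 to 0.76. After median centring the gene's scores overlapped, at 3.40 in control 1 and 3.39 in deletion 2.

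Calr4 (109218413 to 109254979) encodes a relative of calreticulin, a chaperone of the endoplasmic reticulum. It scored 2.93 and 2.43 in the control profiles against 3.20 and 3.25 in the deletion profiles. Here the controls stood apart from each other and the deletion profiles agreed, with SDs of 0.35 and 0.03 (n = 2 each). The difference was 0.54, with 0.27 within number 1 and 0.82 within number 2. It was 0.30 without control 2.

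Cdkn2c, Faf1 and Dmrta2, at the upper end, had the smallest differences. Cdkn2c (109660876 to 109666756) encodes an inhibitor of the cyclin-dependent kinases that drive entry into S phase. It scored 1.79 and 1.63 in the control profiles against 1.79 and 1.99 in the deletion profiles, and the groups overlapped. The number 1 profiles were equal to within 0.01, with a difference of -0.0008, and the number 2 profiles differed by 0.36. Its mean difference of 0.18 was 0.08 without deletion 2 and 0.10 without control 2, and it was 0.07 after median centring and -0.04 after quantile normalization.

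Faf1 (109676627 to 109963960) encodes a ubiquitin-binding cofactor first described as a partner of the death receptor Fas. At 287.3 kb it is the longest gene of the region and crosses from the third hump into the flat end. It scored 1.25 and 1.40 in the control profiles against 1.45 and 1.84 in the deletion profiles, a difference of 0.32. It was 0.13 without deletion 2 and 0.52 without deletion 1. After median centring it was 0.21, and after quantile normalization 0.09. Within the gene 28 of 58 bins had both deletion profiles above both controls, beside 16.0% of all measured bins. The difference was 0.72 at 109755000 and 0.07 at 109875000, where the number 1 profiles differed by -0.06.

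Dmrta2 (109977989 to 109983691) encodes a DMRT transcription factor of forebrain development. It scored 1.20 and 1.49 in the control profiles against 1.44 and 1.51 in the deletion profiles, and the groups overlapped. The difference of 0.13 was 0.24 within number 1 and 0.02 within number 2. It was -0.01 without control 1, 0.27 without control 2, 0.02 after median centring and -0.12 after quantile normalization.

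Of the 10 genes, 8 had both deletion profiles above both controls, all but Cdkn2c and Dmrta2, where 15.1% of the 1301 measured protein-coding genes did. These genes share the bins that chose the region, so the count is a description. Their median difference was 0.53, beside 0.14 over all 1301 genes. In 9 of them, all but Cdkn2c, the difference was above 0 within both replicate numbers, and this was so in 43.7% of all measured genes. The 156 bins that overlap a protein-coding gene had a mean difference of 0.49 and the other 44 bins one of 0.31. Both deletion profiles exceeded both controls in 117 of the first and 24 of the second, where 16.0% of all measured bins did so. That share was not split by gene overlap. Gene overlap was not separated from position along the region either, so these contrasts are not read as effects of genes.

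**Figure D3:**
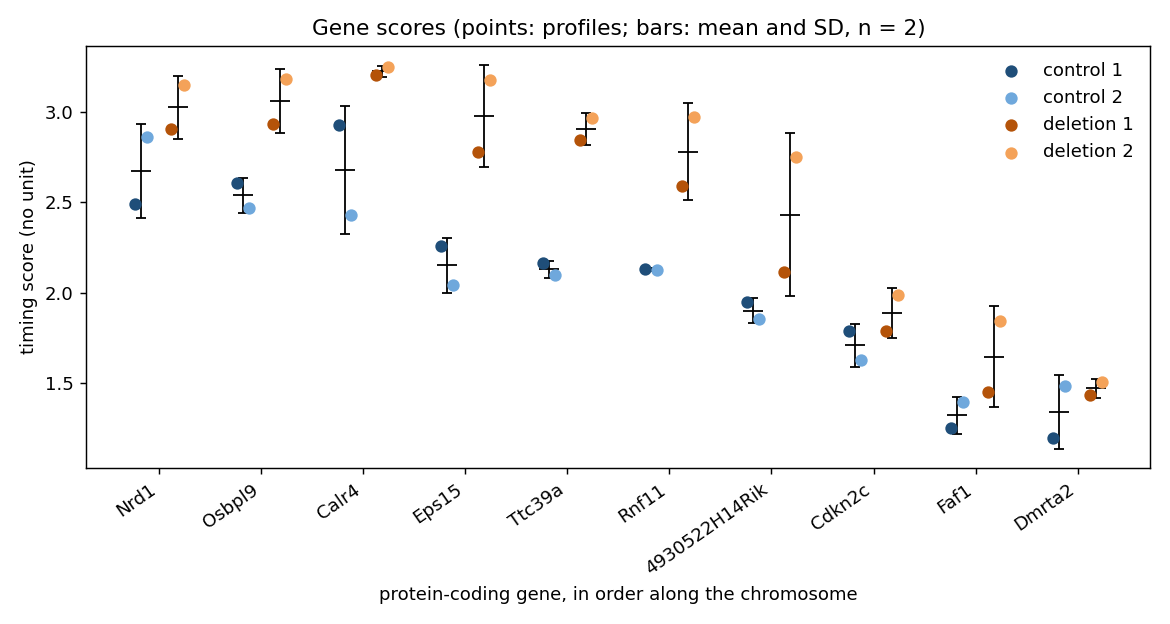
Timing scores of the 4 profiles (vertical axis, without unit) over the 10 protein-coding genes of the region, in their order along the chromosome, with mean and SD as bars (n = 2 profiles per genotype). The points of the genotypes overlap at Cdkn2c and Dmrta2, and Eps15 has the largest gap between the means, 0.82.

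The replicate numbers differed over the whole chromosome. Control 2 minus control 1 had a mean of 0.29 over all measured bins and of -0.01 in the region, where its signs were mixed. Without regard to sign the controls differed by a mean of 0.21 per bin in the region and 0.44 over the chromosome. Deletion 2 minus deletion 1 had a mean of 0.44 over the chromosome and 0.31 in the region. After each profile was centred on its chromosome median, the region scored 2.73 in control 1, 2.30 in control 2, 2.97 in deletion 1 and 2.75 in deletion 2. On that scale the controls were 0.43 apart, control 1 and deletion 2 were nearly equal, and control 2 stood below the other 3. The difference was then 0.34, with 0.23 within number 1 and 0.45 within number 2. After quantile normalization it was 0.26, with 0.21 and 0.32 in the same order. Both deletion profiles exceeded both controls in 103 of the 200 bins after median centring, or 51.5%, beside 17.4% of all measured bins on that scale.

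Centring also changed which genes kept their genotypes apart. After median centring 6 of the 10 genes had both deletion profiles above both controls, beside 17.8% of all 1301 measured genes on that scale. They were Nrd1, Eps15, Ttc39a, Rnf11, 4930522H14Rik and Faf1. Ttc39a then scored 2.96 and 2.47 in the control profiles against 3.58 and 3.17 in the deletion profiles, a difference of 0.66. Rnf11 scored 2.93 and 2.49 in the control profiles against 3.32 and 3.18 in the deletion profiles, a difference of 0.54. Faf1 was apart by a narrow margin, at 2.04 in control 1 and 2.05 in deletion 2, and Osbpl9 overlapped by a margin as narrow, at 3.40 in control 1 and 3.39 in deletion 2. Calr4 overlapped by a wider margin, with control 1 at 3.72 and deletion 2 at 3.45, and it overlapped after quantile normalization too, at 3.19 and 2.95.

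**Figure D4:**
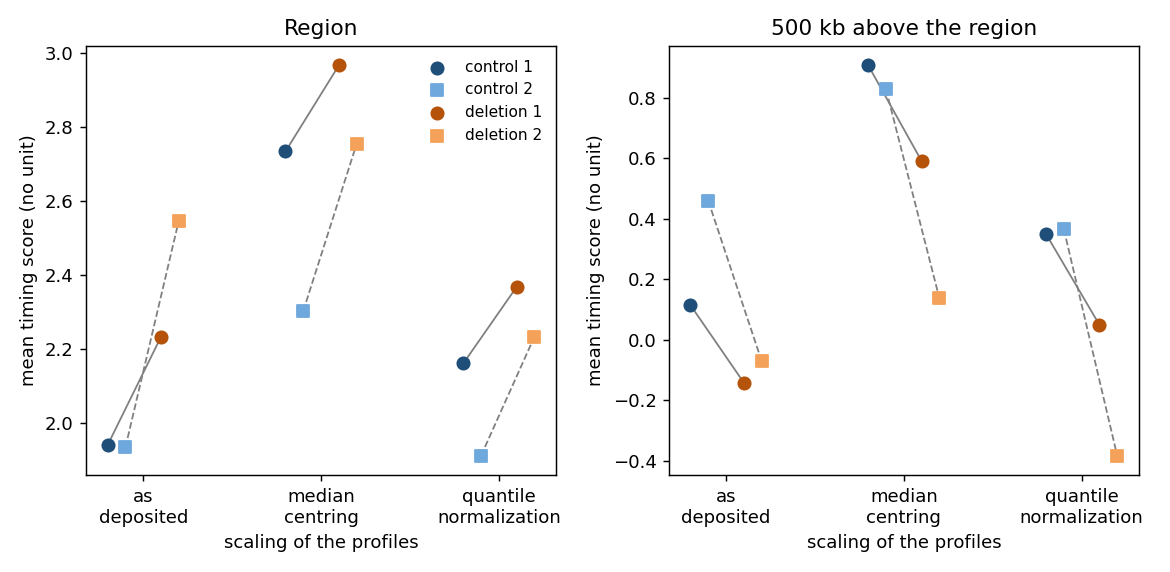
Mean timing scores of the 4 profiles (vertical axis, without unit, not starting at 0) in the region (left) and in the 500 kb above it (right), as deposited, after median centring and after quantile normalization, with lines joining the profiles of one replicate number. In the region both lines go up from control to deletion under each scaling, by 0.29 and 0.61 as deposited, and in the 500 kb above it both go down, by 0.26 and 0.53 as deposited.

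The stretches beside the region had other values. In the 500 kb below it the scores were 2.77 and 3.07 in the control profiles against 2.64 and 3.31 in the deletion profiles, a difference of 0.05. The sign differed between the numbers there, with -0.13 in number 1 and 0.23 in number 2. Both deletion profiles were above both controls in 2 of these 100 bins, beside 16.0% of all measured bins. In the 500 kb above it the scores were 0.11 and 0.46 in the control profiles against -0.14 and -0.07 in the deletion profiles, a difference of -0.39. No test of the region against these stretches was made, since its borders were drawn on the same difference. Control profiles first scored below 0 at 225 and 290 kb above the region's end, and deletion profiles at 215 and 245 kb, so the crossings of the genotypes overlapped.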

How the data were processed

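The deposited table holds replication timing scores at positions 5 kb apart on chromosome 4, 1 column per profile, scaled by the authors to a common interquartile range, per the file name. The submitters' processing notes name Bowtie2, SAMtools, bedtools and mm10. The log base, ratio and smoothing are not given in the sources used here. In the region the mean step between neighbouring bins, without regard to sign, was from 0.016 in control 2 to 0.023 in deletion 2. The scores were therefore read as smoothed, and bins are not treated as independent.

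Columns were matched to groups by name. The titles of the first libraries carry no number, and number 1 comes from the column names. Of 31301 positions, 639 lacked a score in all 4 profiles and 3 lacked one in the deletion profiles, none of them inside the region. Positions were read as bin starts. Genes were scored by averaging the bins they overlap, with genes from RefSeq GRCm38.p6. The rule for named genes was every protein-coding gene overlapping the region. The members, lists and comparisons were chosen with earlier results of these data known. Values were computed in Python 3.11.15 with pandas 2.3.3 and NumPy 2.4.6. No p-value is given, because the comparison of genotypes chose the region.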

Additional observations from a re-analysis of the deposited data

How the results depend on the processing

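With the replicate number as a block, a fit added after seeing the data, the region's difference was 0.45, the mean of the within-number values 0.29 and 0.61, and equal to the unblocked value because each genotype has both numbers. Whether numbers mark true pairs is not stated in the labels. Over all measured bins the same-numbered profiles deviated from their group means with a correlation of 0.64, which describes these 2 pairs alone. The region's difference of 0.45 stayed above 0 under every alternative run, at 0.34 after median centring or scaling by own median and interquartile range, 0.26 after quantile normalization, 0.55 in its central 500 kb and 0.25 when widened by 250 kb on each side. With 1 profile left out it ranged from 0.30 to 0.61. The region was picked on these same scores, so a difference that stays above 0 in these runs is a description. Both deletion profiles exceeded both controls in 141 bins as deposited, 103 with median centring or own scaling and 102 with quantile normalization, and in 70% of 50 kb bins. Over all measured bins the shares were 16.0%, 17.4%, 14.4% and 16.3% in the same order. With positions read as bin ends the control means were 1.93 and 1.93, and that move exceeds the controls' SD of 0.004. The difference between replicate numbers changed with scaling, which was tried after seeing the data. Control 2 minus control 1 was -0.43 after median centring, -0.25 after quantile normalization and -0.43 with the own median and interquartile range. Deletion 2 minus deletion 1 turned negative, at -0.21, -0.13 and -0.21 in the same order, since these scalings remove each profile's chromosome-wide level. Among genes, quantile normalization lowered Faf1 to 0.095 and turned Cdkn2c to -0.044 and Dmrta2 to -0.12, and with 1 profile left out Dmrta2 ranged from -0.014 to 0.27, below 0 without control 1. With 2 profiles per genotype and unknown depth, the precision of a single bin cannot be given.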

Other observations

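Beyond the upper border of the region the deletion profiles scored lower than control, in a stretch described after its values were seen and with no test. Over the 500 kb from 110000000 the difference was -0.39, with -0.26 within number 1 and -0.53 within number 2. Both deletion profiles were under both controls in 67 of its 100 bins, where 5.86% of all measured bins did so. The bins formed runs of 125 kb from 110080000 and of 210 kb from 110260000, and the lowest difference was -0.62 at 110445000. There control scored -0.81 and -0.33 and deletion -1.36 and -1.03. The difference over the 500 kb was -0.50 with median centring, -0.52 with quantile normalization, and it ranged from -0.57 to -0.22 with 1 profile left out.

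The protein-coding genes of that stretch are Elavl4, which encodes a neuronal RNA-binding protein, and the lower end of Agbl4, which encodes a carboxypeptidase. Elavl4 scored -0.20 and 0.14 in the control profiles against -0.39 and -0.42 in the deletion profiles. The 21 bins of Agbl4 in the stretch scored -0.85 and -0.34 in the control profiles against -1.22 and -1.04 in the deletion profiles. The groups did not overlap over Elavl4 or over these bins of Agbl4, most of which lies beyond the stretch. Both deletion profiles were under both controls in 5.86% of all measured bins, and the share over genes was not computed. From the region to this stretch the profiles of control 1, control 2, deletion 1 and deletion 2 thus went from 1.94, 1.94, 2.23 and 2.55 to 0.11, 0.46, -0.14 and -0.07, a steeper fall in both deletion profiles. The region was picked for higher deletion scores, so part of that steeper fall follows from the choice.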
